A study of Mus musculus with 6 samples.

Results

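Glycolysis, the supply of glucose to it and the export of the lactate it yields were examined in E10 mouse eye tissue through 36 genes: glucose carriers, the glycolytic enzymes and their isozymes, lactate dehydrogenases and lactate carriers, and the enzymes that set the flow of sugar into glycolysis, glycogen or mitochondria. The 36 genes were taken by name from the 26437 genes of the table and all 36 passed the filter on low values. They were chosen from the *Rdh10* KO against wild-type values of these same libraries, so that comparison is given for them as a description, with no p-value of a single gene, and the calls counted for them below describe the choice and support nothing. The 3 wild-type and 3 *Rdh10* KO (*Rdh10*-/-) libraries each hold RNA of a pool of 3 embryos at embryonic day 10, so that 9 embryos stand behind each group. *Rdh10* encodes the retinol dehydrogenase of the first step of retinoic acid (RA) synthesis, and the null embryos came from matings of heterozygous parents. The dissected piece was the frontal head with both optic vesicles and the frontonasal region, which the labels call embryonic craniofacial tissue. The spread between libraries is therefore a spread between pools of mixed tissue.

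In glycolysis, glucose enters the cell through carriers of the Slc2a family, is phosphorylated by hexokinase so that it stays in the cell, passes the committed step at phosphofructokinase and is split and oxidized to pyruvate. Pyruvate is either reduced to lactate by lactate dehydrogenase, which renews the NAD+ that glycolysis consumes, or oxidized in mitochondria by the pyruvate dehydrogenase complex, which the Pdk kinases switch off. Early mouse embryos are known for a strong reliance on glycolysis with lactate release, and hypoxia-inducible factors are well-known activators of many of these genes.

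Values are normalized counts, that is, reads on a gene divided by 1 factor per library. They can be compared between libraries for 1 gene, whereas levels of different genes are compared below only per kilobase of exon. Family totals and shares per kilobase cover the isozymes among the 36 genes and leave out their other relatives. The libraries held 16392777 to 27101025 reads on genes, and 3 reads were worth 2.15 to 3.53 normalized counts. *Rdh10* itself lay between 342 and 399 normalized counts in wild-type and between 142 and 183 in *Rdh10* KO, so its reads were reduced to 45.1% of wild-type and the groups did not overlap. All 10 optic vesicle markers were detected, with summed levels of 4812 to 5032 in wild-type and 3227 to 5060 in *Rdh10* KO, where replicate 1 was lowest, and 0 of the 10 passed both thresholds given below. The 10 mesenchyme markers summed to 13592 to 13850 in wild-type and 11452 to 11503 in *Rdh10* KO. Markers of heart and muscle summed to 92.2 to 131 against 153 to 312, with 6 of 9 markers below a mean of 10. *Actc1* (log2 fold change 1.46) was the only one called, at 35.7 to 66.8 in wild-type and 87.4 to 248 in *Rdh10* KO. *Myl7* went the other way, at 15.6 to 28.7 and 6.44 to 11.8, and was not called. *Myh7*, at 23.4 to 29.7 and 35.2 to 45.1, and *Myh6*, at 1.88 to 5.12 and 5.88 to 11.5, went with *Actc1* and were not called. Of the 8 tested markers, 3 lay above all wild-type values in *Rdh10* KO (17.6% of all genes) and 1 below (17% of all genes). Markers of placenta and yolk sac summed to at most 25.1 in any library, where *Prl3d1*, a trophoblast hormone, had no read in wild-type and 2.13 to 7.16 normalized counts in *Rdh10* KO. Their part in the values below was not tested.

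Of the 36 genes, 15 had an adjusted p under 0.05 (limma, Benjamini–Hochberg over 22921 genes) together with a log2 fold change above 0.85 in *Rdh10* KO, which 2.41% of all tested genes had, and 0 were below -0.85 at that p, which 0.886% of all genes were. With the adjusted p alone, 27 were higher (10.3% of all genes) and 1, *Ldhb*, was lower (9.12% of all genes). All 3 *Rdh10* KO values lay above all 3 wild-type values for 29 genes (17.6% of all genes) and below them for 1 (17% of all genes), and the groups overlapped for the other 6. The 36 genes had a median of 0.58 on the log2 scale, and all tested genes one of 0.0036. Nothing is read from these counts, since the values behind them chose the genes. Just inside the threshold on the log2 fold change were *Hk1* and *Pgk1*, both at 0.91, and just outside it lay *Ldhb* at -0.84, while *Pdk4* at 0.89 had the size but not the adjusted p. Without the intensity trend of limma, which lets the expected spread depend on the level of a gene, 8 instead of 15 genes passed both thresholds and 9 instead of 27 were higher by the adjusted p. Over all tested genes, that fit had 294 instead of 552 higher past both thresholds and 448 instead of 2360 higher by the adjusted p.

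**Figure D1:**
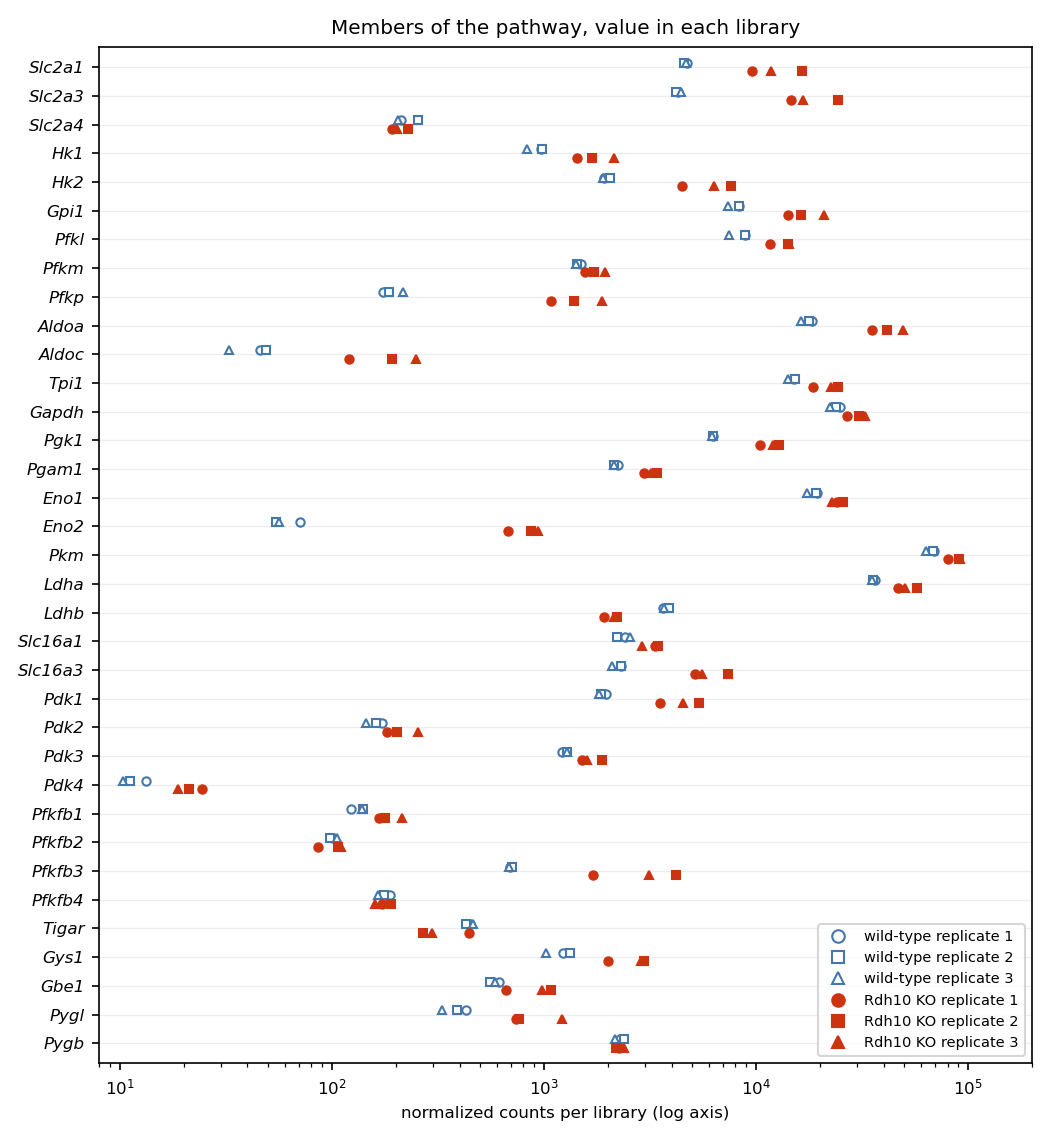
Normalized counts (log axis) of 35 of the 36 genes in each library, in pathway order, with wild-type as open and *Rdh10* KO as filled symbols and 1 symbol shape for each replicate number; *Fbp2*, at no more than 2 reads in any library, is left out. Filled symbols lie to the right of all open symbols for 29 genes and to their left for *Ldhb*.

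The summed share of the 36 genes in all normalized counts was 1.23%, 1.21% and 1.14% in wild-type replicates 1, 2 and 3 and 1.69%, 2.05% and 2.03% in the *Rdh10* KO replicates. The groups were separate in this share also after *Pkm*, *Ldha* and *Aldoa*, the most abundant genes of the pathway, were left out, at 0.553% to 0.597% in wild-type and 0.856% to 1.08% in *Rdh10* KO. In bulk tissue, more cells with a high level and more RNA per cell cannot be told apart. All values in sets of 3 below follow the order of replicates 1, 2 and 3, and errors of log2 fold changes are standard errors of the limma fit with n = 3 libraries per group.

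Both main glucose carriers of the embryo were higher. *Slc2a3*, a carrier of high affinity that neurons and embryonic tissue use (chr6:122727809-122801640, minus strand, GRCm38), was at 4277, 4182 and 4424 normalized counts in wild-type and at 14562, 24261 and 16703 in *Rdh10* KO, a log2 fold change of 2.07 ± 0.13. *Slc2a1*, the carrier of red cells and of barrier tissues, was at 4740, 4573 and 4665 in wild-type and at 9528, 16417 and 11774 in *Rdh10* KO (1.40 ± 0.14). For both carriers, the wild-type libraries were within 1.06-fold of each other, replicate 2 was the highest of the *Rdh10* KO libraries and the lowest *Rdh10* KO library was well above every wild-type one. *Slc2a4*, the insulin-responsive carrier of muscle and fat, was at 204 to 254 normalized counts in wild-type and 192 to 229 in *Rdh10* KO, and its groups overlapped. Per kilobase, *Slc2a1* made up 66.9% ± 0.50 (SD) of the carrier total in wild-type and 57.8% ± 0.93 in *Rdh10* KO, and *Slc2a3* 29.8% ± 0.60 and 41.2% ± 0.87.

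The 3 genes of glucose phosphorylation and isomerisation were all higher. *Hk2*, the inducible hexokinase of muscle and growing cells, was at 1911, 2052 and 1892 normalized counts in wild-type and 4492, 7635 and 6307 in *Rdh10* KO (1.62 ± 0.14). *Hk1*, the widely expressed hexokinase, went from 970, 977 and 835 to 1436, 1694 and 2151 (0.91 ± 0.12), and *Gpi1*, which turns glucose 6-phosphate into fructose 6-phosphate, had a log2 fold change of 1.09 ± 0.11. None of the 3 overlapped between groups. The level of *Hk2* per kilobase was 3.02 ± 0.21 (SD) times that of *Hk1* in wild-type and 5.04 ± 1.23 times in *Rdh10* KO, with 4.47, 6.44 and 4.19 in the single *Rdh10* KO libraries. The size of this ratio rests on the length used. Taken by the longest transcript instead of all exons, it was 1.64 ± 0.11 in wild-type and 2.73 ± 0.67 in *Rdh10* KO. *Hk1* fell under the threshold of 0.85 without wild-type replicate 3 (0.83) and without *Rdh10* KO replicate 3 (0.75).

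The phosphofructokinases, which catalyse the committed step, were unequal in their change. *Pfkp*, the platelet-type isozyme (chr13:6579768-6648777, minus strand), was the scarcest of the family per kilobase in wild-type, at 175, 186 and 217 normalized counts, and stood at 1081, 1383 and 1887 in *Rdh10* KO, a log2 fold change of 2.88 ± 0.16. *Pfkl*, the liver-type isozyme that supplied most of the family's RNA per kilobase, had 7426 to 8907 normalized counts in wild-type and 11683 to 14373 in *Rdh10* KO (0.68 ± 0.09), and *Pfkm*, the muscle type, 1414 to 1493 and 1568 to 1941 (0.26 ± 0.08). The groups did not overlap for any of the 3 genes. Per kilobase, *Pfkp* nevertheless made up only 0.852% ± 0.17 (SD) of the family in wild-type and 4.05% ± 0.74 in *Rdh10* KO. *Pfkp* overlaps *Pitrm1*, which lies on the other strand and was at 3374 normalized counts on average in wild-type and 2983 in *Rdh10* KO. The libraries were made with a directional kit, but whether the counting used the strand is not given in the sources used here.

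Among the enzymes that split fructose 1,6-bisphosphate, *Aldoa*, the main aldolase, had a log2 fold change of 1.25 ± 0.10, with 16214 to 18306 normalized counts in wild-type and 35090 to 49148 in *Rdh10* KO. *Aldoc*, the aldolase of brain, was at 46.04, 48.96 and 32.91 in wild-type and 121, 192 and 248 in *Rdh10* KO (2.09 ± 0.26). Both were separate between groups, and *Aldoc* remained a trace of the family, at 0.390% ± 0.074 (SD) of the aldolase total per kilobase in *Rdh10* KO. *Tpi1*, which interconverts the triose phosphates made by aldolase, went from 14209 to 15221 in wild-type to 18489 to 24374 (0.55 ± 0.09).

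In lower glycolysis, 6 of 6 genes were higher by the adjusted p (10.3% of all genes) and 2, *Pgk1* and *Eno2*, passed both thresholds (2.41% of all genes), counts that the choice of the genes fixes. *Eno2*, the enolase known as a marker of neurons (chr6:124760053-124769673, minus strand), had the highest log2 fold change of the 36 genes, 3.77 ± 0.15, with 70.6, 54.5 and 56.4 normalized counts in wild-type and 677, 872 and 942 in *Rdh10* KO. The lowest *Rdh10* KO library was far above the highest wild-type library. *Eno1*, the general enolase, was at 17479 to 19289 in wild-type and 22916 to 25607 in *Rdh10* KO (0.38 ± 0.07). Per kilobase, *Eno2* made up 0.369% ± 0.046 (SD) of the sum of *Eno1* and *Eno2* in wild-type and 3.78% ± 0.70 in *Rdh10* KO, and this sum, which leaves out *Eno1b* and *Eno3*, was 1.35 times as high. *Pgk1*, which makes the first ATP of the pathway, was at 6180 to 6285 normalized counts in wild-type and 10451 to 12780 in *Rdh10* KO (0.91 ± 0.07, and 0.847, just under the threshold, without *Rdh10* KO replicate 2). *Gapdh*, the dehydrogenase of the pathway and a common reference gene, had a log2 fold change of 0.34 ± 0.08, *Pgam1*, the mutase, 0.55 ± 0.07, and *Pkm*, the pyruvate kinase, 0.39 ± 0.07. These 3 genes too were separate between groups, for *Gapdh* with 22415 to 24918 normalized counts against 26725 to 32688.

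Reads of *Gapdh* and *Eno1* can be shared with near-identical copies, here genes that match at 90% identity or more over at least 200 bases. The 164 such copies of *Gapdh* in the table summed to 21.6% to 25.5% of the normalized counts of *Gapdh* in the single libraries, and those of *Eno1*, mostly *Eno1b*, to 18.6% to 29.5% of *Eno1*, so the values of both genes are uncertain to that extent. Of the other 34 genes, 8 had such copies in the table, which summed to at most 5.31% (*Ldhb*).

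**Figure D2:**
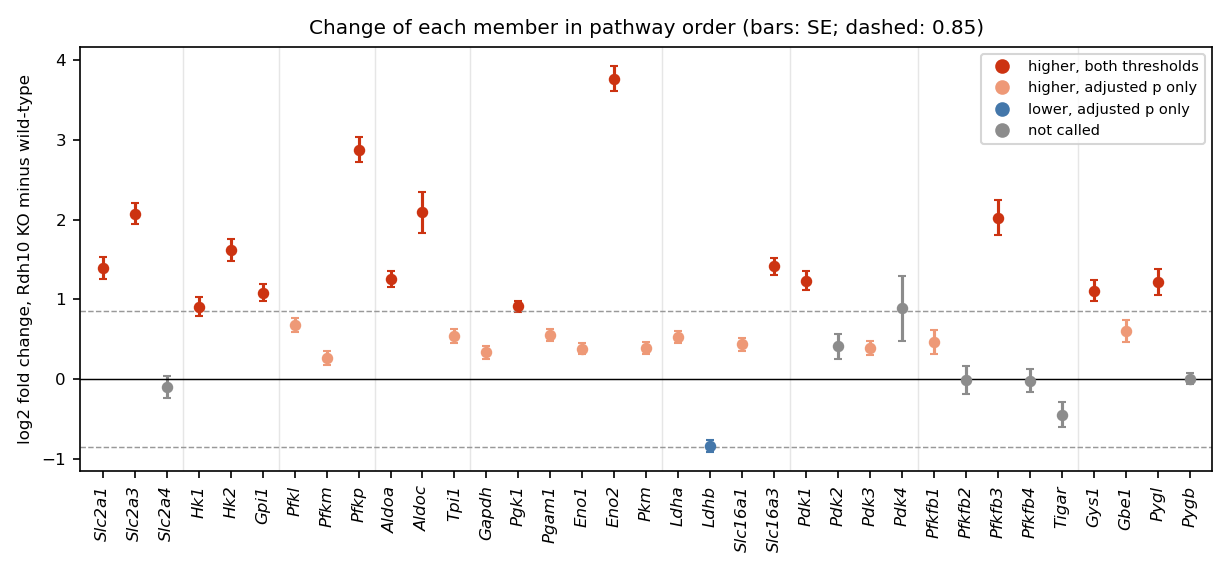
Log2 fold change (*Rdh10* KO minus wild-type, points with standard errors, 3 libraries per group) of 35 of the 36 genes in pathway order, with colours for the call and dashed lines at 0.85 and -0.85. *Eno2* (3.77) and *Pfkp* (2.88) stand highest and *Ldhb* (-0.84) lowest, and *Fbp2* is left out for its lack of reads.

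The 2 lactate dehydrogenases moved in opposite directions. *Ldha*, the subunit that favours the reduction of pyruvate to lactate (chr7:46841475-46855627, plus strand), was at 36430, 35661 and 35182 normalized counts in wild-type and 46727, 57702 and 50551 in *Rdh10* KO, a log2 fold change of 0.53 ± 0.08. *Ldhb*, the subunit that favours the oxidation of lactate to pyruvate (chr6:142490249-142507957, minus strand), was at 3640, 3895 and 3670 in wild-type and 1925, 2210 and 2137 in *Rdh10* KO, which is 55.97% of wild-type (-0.84 ± 0.07). All *Rdh10* KO libraries were above wild-type for *Ldha* and below it for *Ldhb*. The level of *Ldha* per kilobase was 4.75, 4.34 and 4.55 times that of *Ldhb* in wild-type and 11.5, 12.4 and 11.2 times in *Rdh10* KO, and the share of *Ldhb* in the sum of both was 18.05% ± 0.66 (SD) and 7.88% ± 0.37. By the longest transcript, the ratio was 6.89 ± 0.31 in wild-type and 17.7 ± 0.91 in *Rdh10* KO. *Ldhb* passed the threshold of -0.85 when values were rescaled by the median or quantile-normalized, and without wild-type replicate 1, wild-type replicate 3, *Rdh10* KO replicate 2 or *Rdh10* KO replicate 3.

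The lactate carriers were both higher, to different extents. *Slc16a3*, the carrier typical of lactate-exporting cells, was at 2301, 2299 and 2097 normalized counts in wild-type and 5138, 7412 and 5532 in *Rdh10* KO (1.42 ± 0.11). *Slc16a1*, the widely expressed carrier, was at 2401, 2217 and 2559 in wild-type and 3350, 3468 and 2895 in *Rdh10* KO (0.43 ± 0.08). The groups were separate for both. Per kilobase, *Slc16a3* stood at 0.781 ± 0.092 (SD) times *Slc16a1* in wild-type and at 1.55 ± 0.25 times in *Rdh10* KO. Taken by the longest transcript instead of all exons, that ratio was 0.978, 1.06 and 0.836 in wild-type and 1.90 ± 0.31 on average in *Rdh10* KO, so the order of the pair in wild-type rests on the length used, whereas the ratio was higher in every *Rdh10* KO library by either length.

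The start regions of the enolase and lactate dehydrogenase pairs are printed because their members differed most in size or in direction. Each line gives the 250 bases before a start (RefSeq, GRCm38.p6), 5′ to 3′ on the strand of the gene, with ACGTG and GCGTG on either strand in capitals, the core letters of the element that hypoxia-inducible factors bind. The positions are chr7:46845554-46845803 (plus strand) for *Ldha*, chr6:142507958-142508207 (minus) for *Ldhb*, chr4:150236458-150236707 (plus) for *Eno1* and chr6:124769674-124769923 (minus) for *Eno2*.
Ldha: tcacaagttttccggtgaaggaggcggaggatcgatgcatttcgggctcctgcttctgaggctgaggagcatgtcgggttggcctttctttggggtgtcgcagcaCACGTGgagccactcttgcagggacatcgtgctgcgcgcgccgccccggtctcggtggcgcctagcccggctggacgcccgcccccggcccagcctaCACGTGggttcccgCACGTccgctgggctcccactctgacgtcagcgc
Ldhb: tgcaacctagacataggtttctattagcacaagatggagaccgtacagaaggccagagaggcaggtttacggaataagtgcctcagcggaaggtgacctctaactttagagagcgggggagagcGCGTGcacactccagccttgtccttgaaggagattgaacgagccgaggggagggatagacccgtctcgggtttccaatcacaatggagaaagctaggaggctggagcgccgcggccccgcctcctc
Eno1: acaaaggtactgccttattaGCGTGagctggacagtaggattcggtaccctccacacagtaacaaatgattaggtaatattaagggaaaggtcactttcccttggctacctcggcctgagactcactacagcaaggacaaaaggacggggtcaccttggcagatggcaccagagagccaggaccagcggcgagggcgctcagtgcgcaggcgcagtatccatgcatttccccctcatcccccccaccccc
Eno2: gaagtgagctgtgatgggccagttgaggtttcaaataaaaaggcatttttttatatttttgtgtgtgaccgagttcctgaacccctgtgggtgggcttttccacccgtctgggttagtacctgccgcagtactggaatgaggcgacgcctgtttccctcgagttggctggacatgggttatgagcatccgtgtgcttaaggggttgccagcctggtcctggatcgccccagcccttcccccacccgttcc
The printed stretch of *Ldha* holds 5 matches, 4 of them from 2 copies of CACGTG, which reads the same on both strands and so counts once for each. *Ldhb* and *Eno1* hold 1 each and *Eno2* none. In the whole windows of 300 bases, which end 50 bases after the start, *Ldha* has 7 matches and *Eno1* 2. *Ldha* has 2 listed windows and *Eno1* 3, of which the first is printed.

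Windows were found for 34 of the 36 genes, not for *Slc2a3* and *Slc2a4*, and there were 53 of them. ACGTG or GCGTG stood in a window of 28 of the 34 genes (82.4%), against 46.7% of all 27025 genes with a window. For ACGTG alone the shares were 58.8% and 21.8%, for GCGTG 61.8% and 35.2%, and for CACGTG, which contains ACGTG, 20.6% and 8.09%. The 34 genes have more windows per gene than others, and by window the share with either motif was 71.7% against 43.8%. The windows compared were not matched for base composition. The cause of the difference, and whether any factor binds these letters here, was not tested. Among the genes past both thresholds 11 of 14 held a match, among those higher by the adjusted p only 10 of 12, and among those not called 6 of 7.

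Of the 4 pyruvate dehydrogenase kinases, which hold pyruvate back from oxidation, *Pdk1* passed both thresholds. *Pdk1* was at 1968, 1861 and 1809 normalized counts in wild-type and 3538, 5397 and 4532 in *Rdh10* KO (1.24 ± 0.12). *Pdk3*, the most abundant of the 4 per kilobase in wild-type, was higher by the adjusted p only (0.39 ± 0.09), and *Pdk2* (0.41 ± 0.15) and the scarce *Pdk4* (0.89 ± 0.40, at 10.3 to 24.4 normalized counts) were not called. All *Rdh10* KO values were above all wild-type values for each of the 4 (17.6% of all genes). For *Pdk2* the gap was narrow, with 145 to 173 normalized counts in wild-type and 183 to 255 in *Rdh10* KO. The share of *Pdk1* in the family per kilobase was 30.6% ± 1.33 (SD) in wild-type and 44.1% ± 2.77 in *Rdh10* KO, and that of *Pdk3* 62.6% ± 1.91 and 50.2% ± 2.64.

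Fructose 2,6-bisphosphate activates phosphofructokinase, and the Pfkfb enzymes make and remove it. *Pfkfb3*, the form with the highest kinase activity, was at 689, 703 and 683 normalized counts in wild-type and 1697, 4206 and 3128 in *Rdh10* KO (2.03 ± 0.22). Wild-type libraries were within 1.03-fold of each other and *Rdh10* KO libraries spanned 2.48-fold, the widest range among the 15 genes past both thresholds. *Pfkfb1* was higher by the adjusted p only (0.47 ± 0.15). The groups overlapped for *Pfkfb2* (-0.01 ± 0.18) and *Pfkfb4* (-0.02 ± 0.14), and *Tigar*, a phosphatase of fructose 2,6-bisphosphate, was at 430 to 465 normalized counts in wild-type and at 444, 269 and 298 in *Rdh10* KO (-0.45 ± 0.15, not called), with replicate 1 within the wild-type range. Per kilobase, *Pfkfb3* supplied 52.2% ± 0.11 (SD) of the Pfkfb total in wild-type and 79.0% ± 6.80 in *Rdh10* KO, and the total itself was 2.82 times as high.

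**Figure D3:**
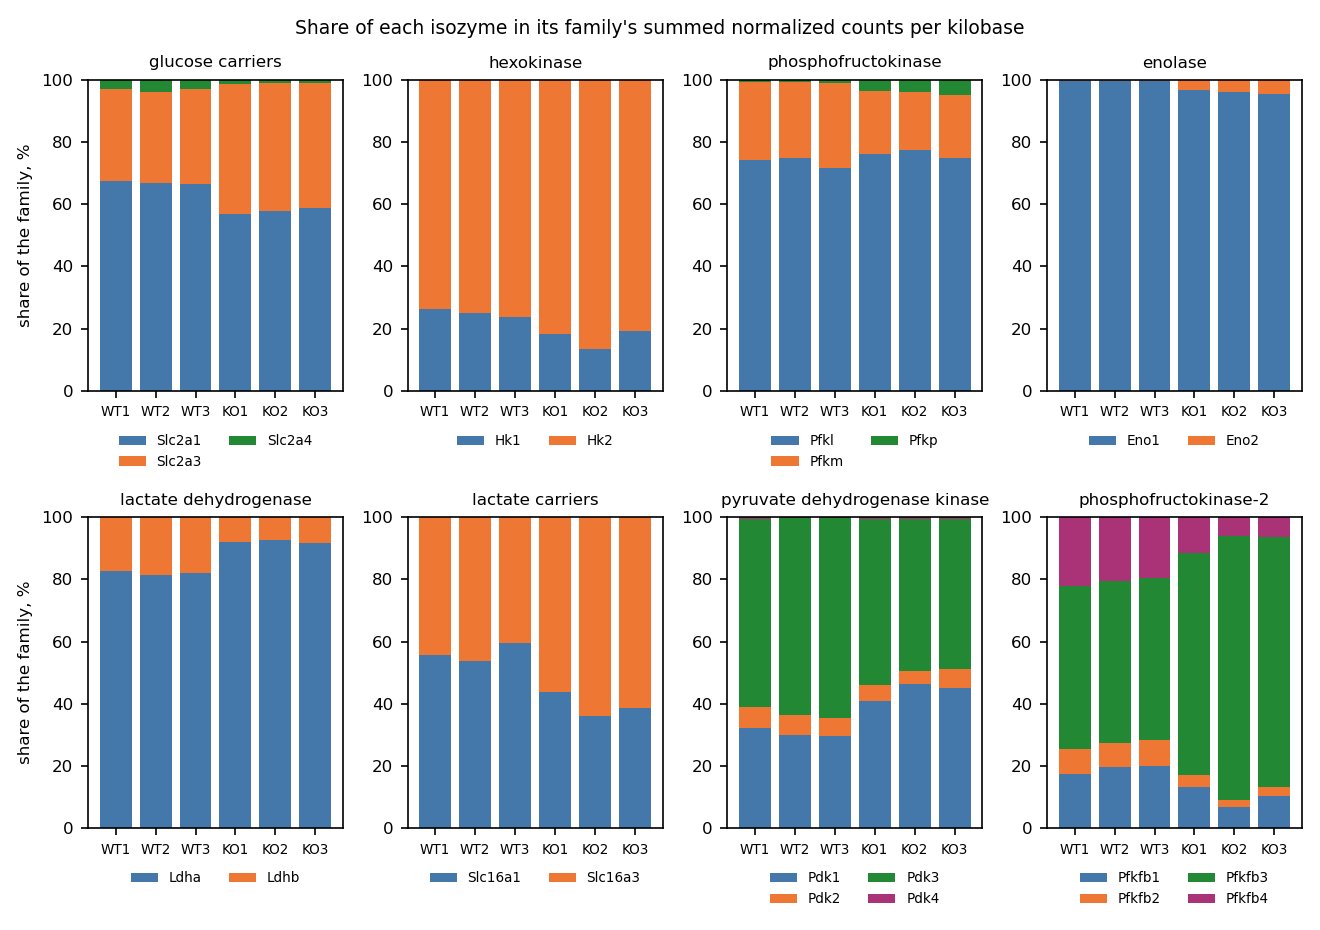
Share (%) of each isozyme in the summed normalized counts per kilobase of exon of its family, counting the isozymes among the 36 genes only, in 8 families and for each wild-type (WT) and *Rdh10* KO (KO) library. *Ldhb*, *Slc16a1*, *Hk1*, *Pdk3* and *Pfkfb4* take a smaller share in all 3 *Rdh10* KO libraries than in any wild-type library, and *Pfkfb3* takes 71.6% to 85.02% of its family there against 52.1% to 52.3% in wild-type.

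Both directions of glycogen metabolism were represented among the genes that were higher. *Gys1*, the glycogen synthase, was at 1236, 1331 and 1028 normalized counts in wild-type and 1994, 2951 and 2877 in *Rdh10* KO (1.11 ± 0.13). *Gbe1*, the branching enzyme, was higher by the adjusted p only (0.60 ± 0.14), with *Rdh10* KO replicate 1 at 664 close to the wild-type maximum of 612. *Pygl*, the liver-type glycogen phosphorylase, was at 429, 387 and 332 in wild-type and 741, 767 and 1217 in *Rdh10* KO (1.22 ± 0.16), while *Pygb*, the brain type and the more abundant of the pair per kilobase, overlapped between groups (0.01 ± 0.07). The share of *Pygl* in their sum was 10.5% ± 1.01 (SD) in wild-type and 21.5% ± 4.20 in *Rdh10* KO. *Gys1* overlaps *Ruvbl2* on the other strand, at 3906 and 4187 normalized counts on average in wild-type and *Rdh10* KO. *Fbp2*, a phosphatase of gluconeogenesis, had no more than 2 reads in any library, so no fold change is given.

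Per kilobase, *Pkm* (13376 ± 678 normalized counts per kilobase, SD), *Ldha* (10803 ± 190), *Aldoa* (5993 ± 376), *Gapdh* (5737 ± 303) and *Tpi1* (5394 ± 203) headed the wild-type libraries, and the ranges of *Aldoa* and *Gapdh* and those of *Gapdh* and *Tpi1* overlapped. By the longest transcript, *Eno1* (9203) took the place of *Gapdh* (7210) among these 5, so the order rests on the length used. The genes with the largest log2 fold changes came from the other end, since *Eno2* (12.9 ± 1.9), *Aldoc* (13.1 ± 2.6) and *Pfkp* (14.4 ± 1.6) were among the lowest per kilobase in wild-type. Summed by step per kilobase, the *Rdh10* KO mean was 3.12 times the wild-type mean for glucose carriers, 2.84 times for hexokinases and 2.40 times for aldolases, against 1.55 times for phosphofructokinases, 1.35 times for enolases and 1.28 times for lactate dehydrogenases.

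The 3 *Rdh10* KO libraries were not alike in size of change. Replicate 1 was the lowest of the 3 for 15 of the 15 genes past both thresholds and for 29 of the 35 genes with a mean above 10, against 30.8% of all genes of that level. Replicate 2 was highest for 8 of the 15, which are *Slc2a1*, *Slc2a3*, *Hk2*, *Pgk1*, *Slc16a3*, *Pdk1*, *Pfkfb3* and *Gys1*, and replicate 3 for the other 7, which are *Hk1*, *Gpi1*, *Pfkp*, *Aldoa*, *Aldoc*, *Eno2* and *Pygl*. The summed level of 8 markers of embryonic blood, all of them detected, was 125442, 99754 and 134086 normalized counts in wild-type and 50619, 119014 and 155111 in *Rdh10* KO, with 0 of the 8 called. Within *Rdh10* KO it was thus lowest in replicate 1 and highest in replicate 3, as were the values of each of those 7 genes. In *Rdh10* KO replicate 1 the summed level of the blood markers was below that of every wild-type library. All 15 genes, chosen from these same values, were above every wild-type value there, and the part of blood in their levels was not tested. The markers of forebrain summed to 5866 to 6215 in wild-type and to 5585, 8007 and 7696 in *Rdh10* KO, so that replicate 1 was lowest there as well, as it was for the optic vesicle markers. The part of these tissue differences in the order of the libraries was not tested. Without *Rdh10* KO replicate 1, all 15 genes again passed both thresholds and the median of the 36 genes on the log2 scale was 0.72.

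**Figure D4:**
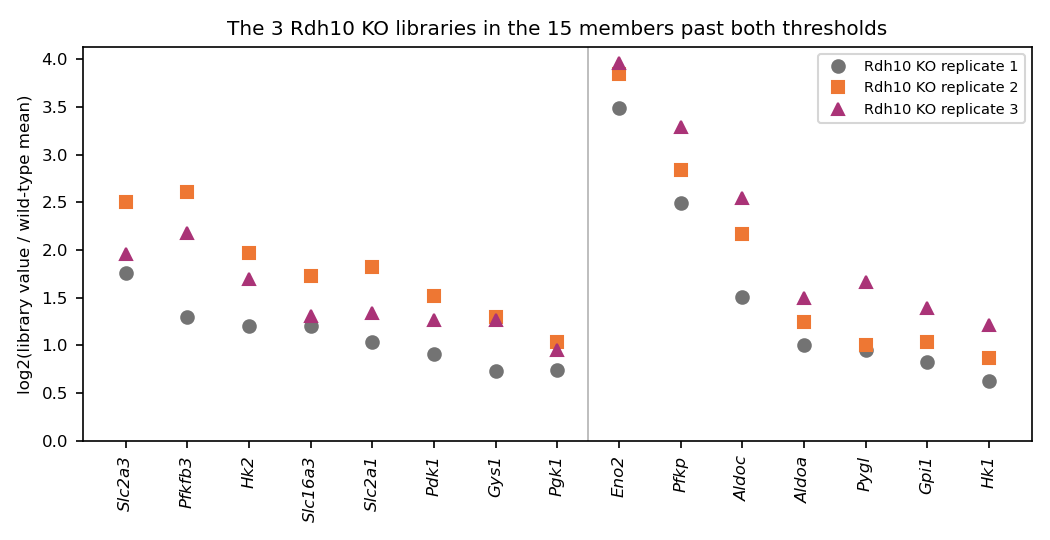
Log2 ratio of each *Rdh10* KO library to the wild-type mean for the 15 genes past both thresholds, with genes highest in replicate 2 left of the line and genes highest in replicate 3 right of it. Replicate 1 (circles) is the lowest of the 3 for all 15 genes and lies above 0 for each.

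Genes around glycolysis that are not among the 36 were listed by function, 73 in all, of which 67 were in the table and 65 could be tested. Of these, 4 were higher and 1 was lower past both thresholds (2.41% and 0.886% of all genes), and 14 were higher and 10 lower by the adjusted p (10.3% and 9.12% of all genes). Their median was 0.02 on the log2 scale. Of the 24 genes past the adjusted p, 13 stayed past it whichever library was left out, and 11 lost it in at least 1 such fit. These lists too were drawn up with earlier results of these data known. Their counts and adjusted p-values, here and below, are therefore a description.

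Of the glycogen enzymes outside the 36 genes, 3 of 14 were higher past both thresholds (2.41% of all genes). By the adjusted p, 7 of 14 were higher (10.3% of all genes) and 0 were lower (9.12% of all genes). *Ppp1r3c*, a subunit that directs protein phosphatase 1 to glycogen and so favours its synthesis, was at 64.5, 72.3 and 62.1 normalized counts in wild-type and 390, 1221 and 671 in *Rdh10* KO, a log2 fold change of 3.37 ± 0.28 with an adjusted p of 6.1e-06 in limma. *Pgm2*, a phosphoglucomutase, rose by 1.22 ± 0.13 on the log2 scale (adjusted p = 3.5e-05) and *Gaa*, the lysosomal enzyme that degrades glycogen, by 0.93 ± 0.11 (adjusted p = 7.4e-05). The groups were separate for all 3, and *Ppp1r3c*, like *Pfkfb3*, was lowest in replicate 1 and highest in replicate 2 of *Rdh10* KO.

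The pentose phosphate pathway leaves glycolysis at glucose 6-phosphate and yields NADPH and ribose. By the adjusted p, 0 of its 7 genes were higher (10.3% of all genes) and 4 were lower (9.12% of all genes), none past -0.85. *Taldo1*, the transaldolase, was at 2943 to 3303 normalized counts in wild-type and 2171 to 2299 in *Rdh10* KO (-0.48 ± 0.07, adjusted p = 0.00037), and *Pgd*, the 6-phosphogluconate dehydrogenase, had -0.41 ± 0.09 (adjusted p = 0.0041). *Pgls* (-0.26 ± 0.08) and *Rpia* (-0.37 ± 0.10), a lactonase and an isomerase of the same route, kept the adjusted p in 2 and 3 of the 6 fits that leave out a library. *G6pdx*, the entry enzyme, had a log2 fold change of -0.08 ± 0.08 and *Tkt*, the transketolase, of -0.01 ± 0.06, and neither was called.

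Among 11 genes of pyruvate entry into mitochondria, 2 were higher by the adjusted p (10.3% of all genes). By the same rule 4 were lower (9.12% of all genes), and none was past 0.85 in size. *Pdhb* (-0.45 ± 0.07, adjusted p = 0.00070) and *Dld* (-0.43 ± 0.09, adjusted p = 0.0043), subunits of the pyruvate dehydrogenase complex, and *Pdhx* (-0.34 ± 0.08), its binding protein, were lower, as was *Mpc2* (-0.36 ± 0.10), a part of the mitochondrial pyruvate carrier. *Pdha1*, the subunit that the Pdk kinases phosphorylate, was higher (0.26 ± 0.07), as was *Pdpr* (0.34 ± 0.10), a regulator of the opposing phosphatase. The calls of *Mpc2*, *Pdha1* and *Pdpr* held in 1, 2 and 1 of the 6 fits that leave out a library, and that of *Pdhx* in 5.

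In the remaining lists, few genes changed. *Bsg*, the chaperone that the lactate carriers need at the cell surface, was at 5479 to 6051 normalized counts in wild-type and 8228 to 10624 in *Rdh10* KO (0.73 ± 0.09, adjusted p = 8.2e-05), whereas its relative *Emb* had 0.01 ± 0.09. *Pck2*, the mitochondrial enzyme that makes phosphoenolpyruvate, was at 336 to 386 in wild-type and 793 to 1118 in *Rdh10* KO (1.34 ± 0.12, adjusted p = 9.8e-06). Among other glycolytic isozymes, *Eno1b* was higher (0.53 ± 0.12) and *Bpgm*, which diverts a glycolytic intermediate to 2,3-bisphosphoglycerate and is best known from red cells, was lower (-0.53 ± 0.08, adjusted p = 0.00031). The extremes of that list, *Hk3* (-3.15 ± 1.36) and *Pgam2* (0.59 ± 0.45), were not called. Of the other glucose and hexose carriers, *Slc2a12* was higher (0.848 ± 0.24, a call held in 2 of the 6 fits that leave out a library) and *Slc2a6* at the low end had -0.42 ± 0.38. Of the glycerol phosphate shuttle, which passes electrons of glycolysis to mitochondria, 0 of 3 genes were called, from *Gpd1* (-0.78 ± 0.35) to *Gpd2* (0.17 ± 0.08).

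Among genes of glucose-responsive transcription, *Txnip*, an inhibitor of glucose uptake that glucose induces, was at 756 to 825 normalized counts in wild-type and 996 to 1882 in *Rdh10* KO (0.74 ± 0.16, adjusted p = 0.0059). *Mlxipl*, the glucose-sensing transcription factor of liver and fat, was the only listed gene lower past both thresholds (-1.10 ± 0.34, adjusted p = 0.034), from 38.95 to 53.2 normalized counts in wild-type to 14.9 to 31.8. Its call held in 1 of the 6 fits that leave out a library, the one without *Rdh10* KO replicate 3.

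**Figure D5:**
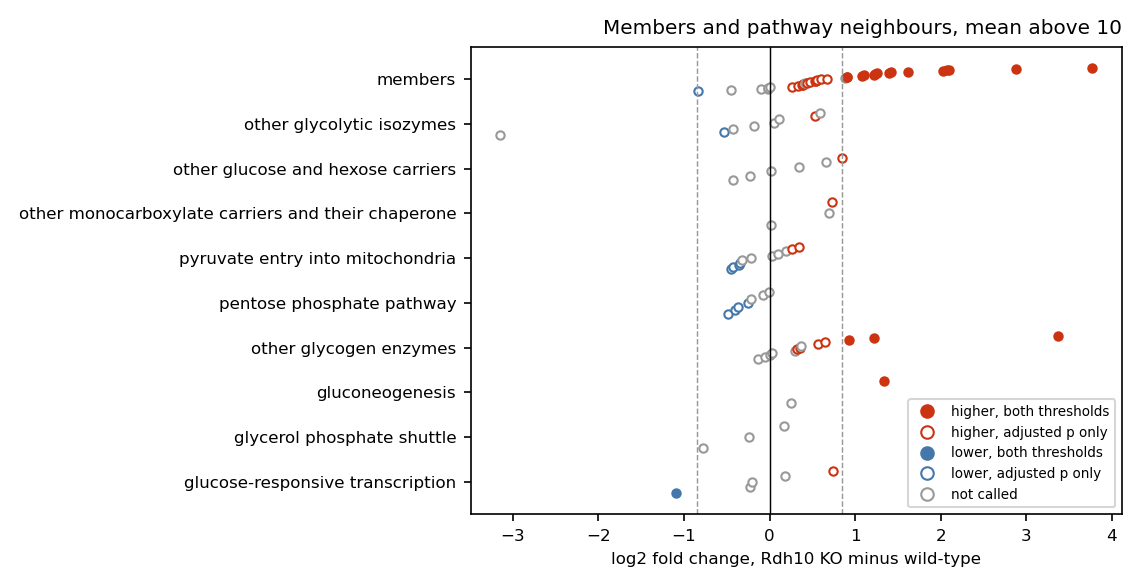
Log2 fold change (*Rdh10* KO minus wild-type) of the 36 genes (top line, without *Fbp2*) and of listed pathway genes with a mean above 10 normalized counts, 1 point per gene, filled past both thresholds and coloured where the adjusted p is under 0.05. The pentose phosphate genes lie at or left of 0, from -0.48 to -0.01, and 3 other glycogen enzymes lie right of 0.85.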

How the data were processed

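The RNA-seq table was analysed for the 3 wild-type and 3 *Rdh10* KO libraries. According to the methods, the authors made directional, poly(A)-selected libraries and aligned reads to mm10 with TopHat (also named in the submitters' processing notes). The study names FPKM, but the deposited signal is not divided by gene length: 100% of the values in each library are whole reads (within 0.1 read) divided by 1 factor of 0.850 to 1.40, equal to the median-of-ratios size factor. A line that names no gene was left out. The table holds no comparison by the authors and no other sample's columns.

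The test was limma 3.58.1 (R 4.3.3) with an intensity trend and no term but the genotype, on log2 of the value plus a pseudocount of 0.1, for genes with a mean above 0.5 and with Benjamini–Hochberg adjustment. Fold changes are on that scale. Nothing in the labels pairs libraries, and same-numbered libraries did not deviate together (correlations of -0.0258, -0.0345 and -0.0741 over 15272 genes). P-values measure the spread between pools only. Genes were named as all 36 members, pathway genes past both thresholds and, in lists with none, the lowest and highest gene with a mean above 10, and other listed genes were named after their values were seen. The members and lists were chosen with earlier results of these data known. Lengths, positions and overlaps came from GENCODE M21 (GRCm38), and copies from blastn 2.17.0. edgeR 4.0.16 (607 genes higher and 235 lower past both thresholds by the quasi-likelihood test, against 552 and 203) and DESeq2 1.42.0 were run on the recovered reads as alternatives, beside other pseudocounts, filters, scalings, a replicate block and fits without each library. The fits were tested on simulated data. Python 3.11.15, pandas 2.3.3, numpy 2.4.6 and matplotlib 3.10.9 made tables and plots. A few listed genes are left unreported here.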

Additional observations from a re-analysis of the deposited data

How the results depend on the processing

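The 15 genes past both thresholds stayed 15 under other pseudocounts and filters, quantile normalization, edgeR, DESeq2 and the replicate block, were 13 under median scaling and 14 to 15 without 1 library. Limma without the intensity trend lowered several counts: 15 to 8 for genes past both thresholds, 27 to 9 for genes higher by the adjusted p, and for listed pathway genes 14 to 3 higher and 10 to 1 lower by the adjusted p and 1 to 0 lower past both thresholds. The count lower past both thresholds was 1 in place of 0 (*Ldhb*) under median scaling and under quantile normalization, and 0 to 1 without 1 library. The count lower by the adjusted p was 2 in place of 1 with a pseudocount of 1, with no filter, with a mean above 10, with median scaling and with quantile normalization, *Tigar* being added, and 1 to 2 without 1 library. The median log2 fold change was 0.50 to 0.72 without 1 library, and 23 to 28 genes were then higher by the adjusted p. With the replicate block, pathway genes lower past both thresholds went from 1 to 0 and those lower by the adjusted p from 10 to 6. The replicate number is not known to pair libraries, and the block left the 15 genes at 15. Without 1 library, pathway genes lower past both thresholds were 0 to 2, those higher by the adjusted p 9 to 13 and those lower 5 to 10. Genes near 0 turned sign: *Pfkfb2* spanned -0.0837 to 0.0982, *Pfkfb4* -0.0824 to 0.0410 and *Pygb* -0.0289 to 0.0387 without 1 library, and *Pygb* was at -0.0600 with median scaling and -0.0155 with quantile normalization. Of 52 shares per kilobase, 40 moved by more than the spread between replicates when the longest transcript set the length, as for *Hk2*, at 62.1% in wild-type and 72.7% in *Rdh10* KO. The causes were not tested.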
